A study of Rangifer tarandus with 8 samples.

Results

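The mineral matrix phosphoprotein genes SPP1, IBSP, MEPE, DMP1 and DSPP encode secreted proteins of bone and dentin. They were taken from the deposited gene annotation as protein coding gene records whose first name is one of these symbols. All 5 were found, each once, among 21861 protein coding genes. The single-cell ATAC-seq study to which the annotation belongs profiled open chromatin in the skin of adult reindeer (Rangifer tarandus). Its 8 libraries came from velvet, the skin that covers the antler, and from back skin, each unwounded at day 0 and at day 7 after full-thickness wounding, and from velvet grafted onto the back and taken after 6 weeks (2 animals), 3 months and 6 months. The labels name no genotype, allele or drug treatment, and every library was made from dermis after the epidermis had been removed with dispase. The submitters' labels give between 1006 and 20002 recovered cells per library. The fragments were placed on the cattle (Bos taurus) assembly ARS-UCD1.2, so all positions below are cattle positions. The titles and the design text name ATAC, whereas the extraction text of the labels describes a 3' cDNA protocol, and the libraries are called here by their titles. Accessibility was not analysed here, so the values below describe gene models, have no replicates and compare no skin samples.

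These genes belong to a family of secretory calcium-binding phosphoproteins that arose by tandem duplication from a gene related to SPARC, which encodes the matrix protein osteonectin. In the human genome they lie in a single run, in the order DSPP, DMP1, IBSP, MEPE, SPP1, all read in the same direction, with SPARCL1 at one end and PKD2 at the other. Their proteins are phosphorylated in the secretory pathway, bind calcium and hydroxyapatite, and carry an RGD motif through which cells attach by integrins. In bone they tune where and how fast mineral forms, and antler is a bone that is regrown every year beneath the velvet.

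In cattle the family was split into separate blocks on chromosome 6. SPP1, MEPE and IBSP formed a block of 200.6 kb (36693193 to 36893805), all on the minus strand. DSPP and DMP1 formed a block of 48.2 kb (102494936 to 102543087), both on the plus strand. Between IBSP and DSPP lay 65.6 Mb holding 320 other protein coding genes, or 395 genes of any type. From the first to the last member the family spanned 65.85 Mb of a chromosome whose last annotated gene ends at 117.8 Mb. Read along transcription, the order within the blocks was IBSP, MEPE, SPP1 and DSPP, DMP1, which is the human order within each block.

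**Figure D1:**
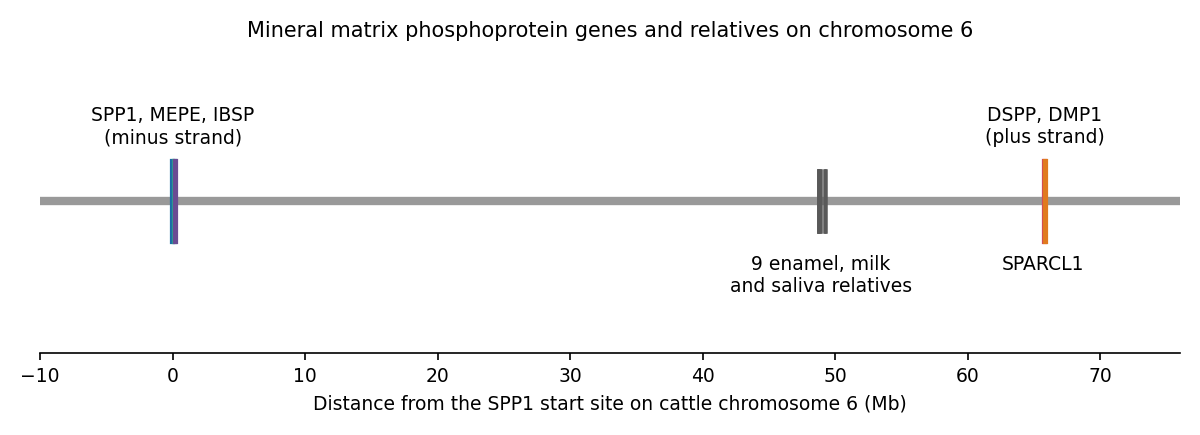
Position of the members along cattle chromosome 6, as distance in Mb from the SPP1 start site, with members as coloured ticks above and below the line and related genes labelled beneath it. SPP1, MEPE and IBSP sit together at the left, 65.6 Mb from DSPP and DMP1 at the right, and 9 enamel, milk and saliva relatives lie between the blocks.

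The ends of the human run were found at separate blocks. PKD2, which encodes the ion channel polycystin-2, was the coding gene nearest to SPP1, 20.7 kb beyond its 3' end and on the same strand. ABCG2, an efflux transporter gene, followed at 89.98 kb and PPM1K, which encodes a mitochondrial phosphatase, at 222 kb, both on the plus strand. SPARCL1, the SPARC-like matrix protein gene, was the coding gene nearest to DSPP, at 71.7 kb and on the minus strand, so that SPARCL1 and DSPP are read away from each other. An unnamed long noncoding RNA gene (ENSBTAG00000053494, minus strand) lay between them, 46.7 kb from DSPP. NUDT9, which encodes an ADP-ribose hydrolase, followed at 137.2 kb and HSD17B11, a steroid dehydrogenase gene, at 218 kb.

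The inner ends had other neighbours. Beyond IBSP no gene of any type was annotated for 246.9 kb, up to LAP3, a leucine aminopeptidase gene on the plus strand, which was followed by the Mediator subunit gene MED28 at 275.4 kb and by FAM184B at 287.3 kb. Only 7.61% of the 19695 gaps between neighbouring coding genes that do not overlap were larger than the IBSP to LAP3 gap, and the median gap was 18.3 kb. Beyond DMP1 came an unnamed coding gene at 20.7 kb (ENSBTAG00000017829, minus strand), another at 88.3 kb (ENSBTAG00000006508, plus strand), and PPP2R2C, which encodes a regulatory subunit of protein phosphatase 2A, at 173.7 kb.

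Spacing was uneven within the blocks, and no gene of any type was annotated between neighbouring members. MEPE and IBSP stood 15.9 kb apart, which is below the median gap. DSPP and DMP1 stood 25.4 kb apart, and 41.7% of gaps were larger. SPP1 and MEPE stood 119.5 kb apart, and 13.8% of gaps were larger. Start to start, IBSP and MEPE were 29.6 kb apart, DSPP and DMP1 31.4 kb, and MEPE and SPP1 133.6 kb. SPP1, MEPE and IBSP thus each bordered a stretch of at least 100 kb without a coding gene, a property of 22.9% of all coding genes, and DSPP and DMP1 did not.

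**Figure D2:**
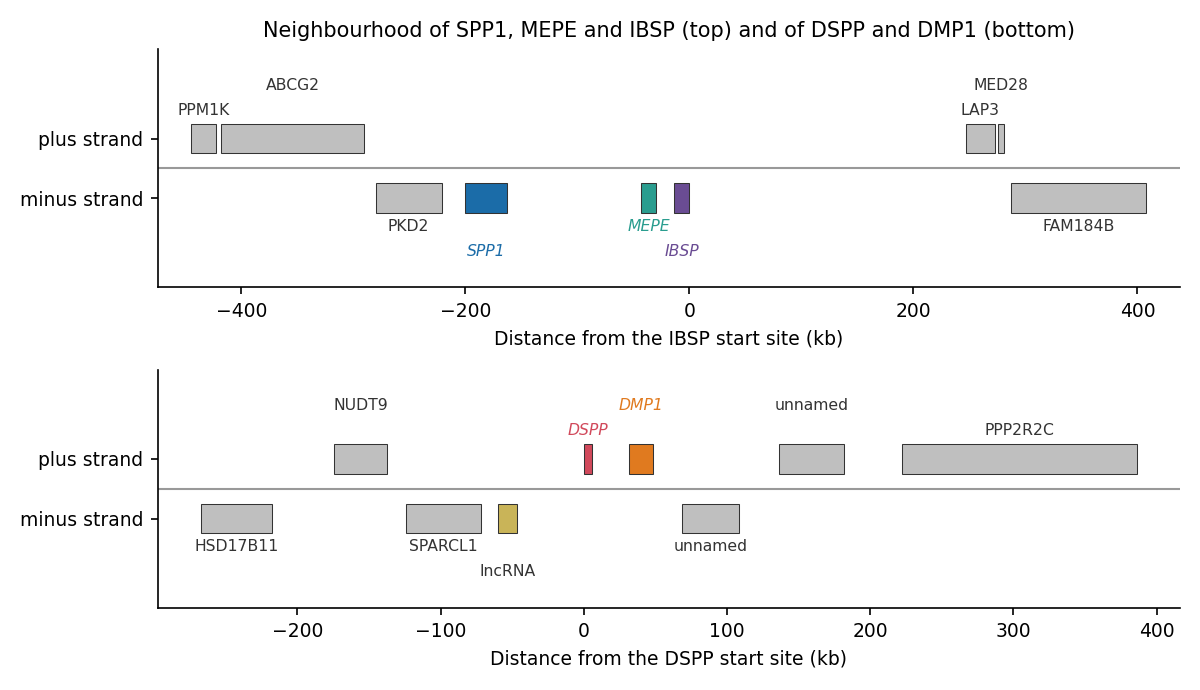
Gene bodies around each block, with distance in kb from the IBSP start site (top) or the DSPP start site (bottom) and with genes of the plus strand above the line and of the minus strand below it. The members are coloured, other coding genes are grey and the long noncoding RNA gene is yellow; the 119.5 kb gap between SPP1 and MEPE and the 246.9 kb gap between IBSP and LAP3 are free of annotated genes.

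Signac, which the submitters used, usually scores the activity of a gene by its fragments in a window made of the gene body and the 2 kb before its start. None of the 5 windows overlapped that of another coding gene, against 30.1% of all coding genes that did. The count was also 0 with no extension and with 5 kb upstream. The windows measured 39.4 kb for SPP1, 16.1 kb for MEPE, 15.8 kb for IBSP, 7.93 kb for DSPP and 18.8 kb for DMP1. SPP1 was the longest of the members and DSPP the shortest, against a median body of 14.0 kb over all coding genes before any extension.

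Each member is described by the transcript with the longest coding sequence, whose exons and introns were measured in bases. MEPE, IBSP, DSPP and DMP1 had a single transcript each, as did 62.3% of all coding genes, and SPP1 had 4. An intron is in phase 0 when it falls between codons and in phase 1 or 2 when it splits a codon after its first or second base. Coding bases exclude the stop codon, as in the file.

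MEPE encodes matrix extracellular phosphoglycoprotein, the source of a peptide that inhibits mineralisation. Its gene (ENSBTAG00000007568, chromosome 6, 36850100 to 36864170) had 5 exons, the first of which was a wholly untranslated exon of 28 bases. The 4 coding exons held 54, 54, 93 and 1458 bases, so that the last exon carried 87.9% of the 553 codons. Only 0.178% of the 14566 genes with 4 or more coding exons had a larger share in a single exon. Its introns measured 2282, 3503, 944 and 5263 bases in transcript order.

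DMP1 encodes dentin matrix protein 1, a protein of osteocytes and dentin that is required for normal phosphate balance and bone mineral. Its gene (ENSBTAG00000019132, chromosome 6, 102526308 to 102543087) had 6 exons and opened with an untranslated exon of 104 bases. The 5 coding exons held 60, 48, 33, 48 and 1347 bases, and the last carried 87.7% of the 512 codons, nearly the share seen in MEPE. The first intron, which follows the untranslated exon, was the longest of the gene at 6940 bases. Of the 174154 introns in the described transcripts of all coding genes, at any position, 13.8% were longer. The 3' untranslated region of 1379 bases was the longest among the members.

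IBSP encodes bone sialoprotein, which binds hydroxyapatite and favours its nucleation. Its gene (ENSBTAG00000000470, chromosome 6, 36880054 to 36893805) had 7 exons, the first an untranslated exon of 32 bases. The 6 coding exons held 54, 51, 78, 66, 171 and 510 bases, and the last carried 54.8% of the 310 codons. IBSP had the shortest coding sequence of the family. Its introns measured 2367, 94, 95, 4386, 5218 and 557 bases in transcript order.

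DSPP encodes dentin sialophosphoprotein, which is cut into the main noncollagenous proteins of dentin and is also made at lower levels in bone. Its gene (ENSBTAG00000045714, chromosome 6, 102494936 to 102500867) had the shortest body, 5.93 kb, and the longest coding sequence, 1190 codons, so that exons made up 60.2% of the gene. Over the span of the described transcript, exons made up 7.53% in IBSP, 14.8% in MEPE, 18.1% in DMP1 and 25.6% in SPP1. The 5 exons held 3, 54, 87, 999 and 2427 coding bases. The last carried 68.0% of the coding sequence, and the 999 bases of the exon before it were the longest of any coding exon in the family outside the largest ones. The model had no untranslated region at either end, as for 31.7% of all coding genes. Its first exon consisted of the start codon alone and was followed by an intron of 78 bases. Whether this model is complete at either end was not tested. Its exon number, first coding exon and lack of an untranslated first exon rest on its 5' end. Its body length, exonic share, window and distances to neighbouring genes also rest on its annotated ends. A first coding exon of 3 bases was found in 1.08% of genes with 2 or more coding exons. Of the introns in the described transcripts of all coding genes, 1.44% were 78 bases or shorter.

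SPP1 encodes osteopontin, a phosphoprotein of bone that is also secreted by macrophages, fibroblasts and epithelia during inflammation and repair. Its gene (ENSBTAG00000005260, chromosome 6, 36693193 to 36730559) was the longest of the family at 37.4 kb. The transcript with the longest coding sequence, SPP1-201, had 7 exons, all of them coding, with 166, 68, 39, 81, 42, 303 and 315 coding bases. The last exon carried 31.1% of the 338 codons and was only 12 bases longer than the exon before it. By this transcript SPP1 was thus the member without a dominant exon, and 33.4% of genes with 4 or more coding exons had a larger share in a single exon.

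**Figure D3:**
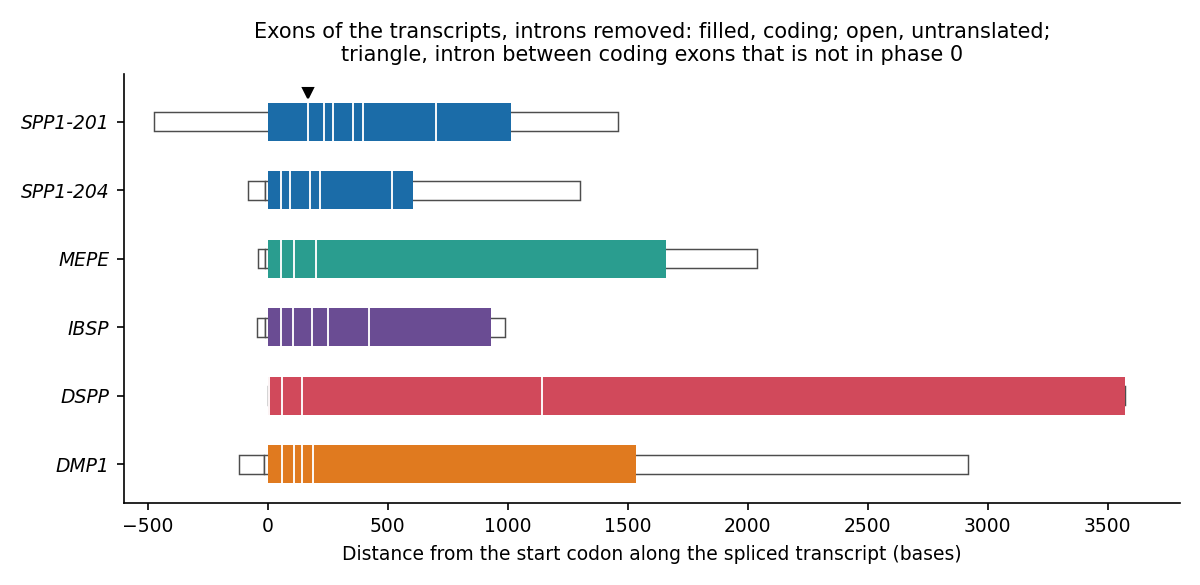
Spliced transcripts of the 5 genes, and of SPP1-204 beside SPP1-201, drawn to scale as distance in bases from the start codon, with coding exons filled, white lines at exon joints and untranslated parts open. The last coding exon fills most of MEPE, DMP1 and DSPP, and the 3-base first exon of DSPP is too short to be seen; the only joint marked as not in phase 0 is the first of SPP1-201.

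Across the family the reading frame was left whole at almost every joint. Of the 22 introns between coding exons, 21 (95.5%) were in phase 0, against 45.5% of the 168541 such introns in all genes with 2 or more coding exons. The exception was the first intron of SPP1-201, in phase 1. In MEPE, IBSP, DSPP and DMP1 every intron between coding exons was in phase 0, so 4 of 5 members had no other phase, against a background of 2.1% of genes with 4 or more coding exons. Counting any transcript with 4 or more coding exons, SPP1 joined them through SPP1-204, which made 5 of 5 against 2.44%. Accordingly, 25 of 27 coding exons (92.6%) were a multiple of 3 bases long, against 40.6% of coding exons in all genes with 2 or more. Exons of this kind can be joined or left out without shifting the reading frame.

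The largest coding exon came last in 5 of 5 members, against 22.6% of genes with 4 or more coding exons. It held 50% or more of the coding sequence in 4 of 5, all but SPP1, against 10%. Both counts are by the longest coding sequence. In SPP1-204 the largest coding exon held 50.2% and was not the last. The length of the largest coding exon was 315 bases in SPP1, 510 in IBSP, 1347 in DMP1, 1458 in MEPE and 2427 in DSPP, a 7.705-fold range over the family. The median over all 18720 genes with 2 or more coding exons was 299 bases. A larger one was found in 47.5% of those genes for SPP1, 28.5% for IBSP, 5.95% for DMP1, 5.01% for MEPE and 1.52% for DSPP. SPP1 thus lay near the middle of the annotation, and DSPP, MEPE and DMP1 in its upper tail. Outside the largest exon the coding bases numbered 189 in DMP1, 201 in MEPE, 420 in IBSP, 699 in SPP1 and 1143 in DSPP. The coding sequences as a whole differed 3.84-fold, from 930 bases in IBSP to 3570 in DSPP. Exon numbers of 5 to 7 lay around the median of 6 over all coding genes.

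**Figure D4:**
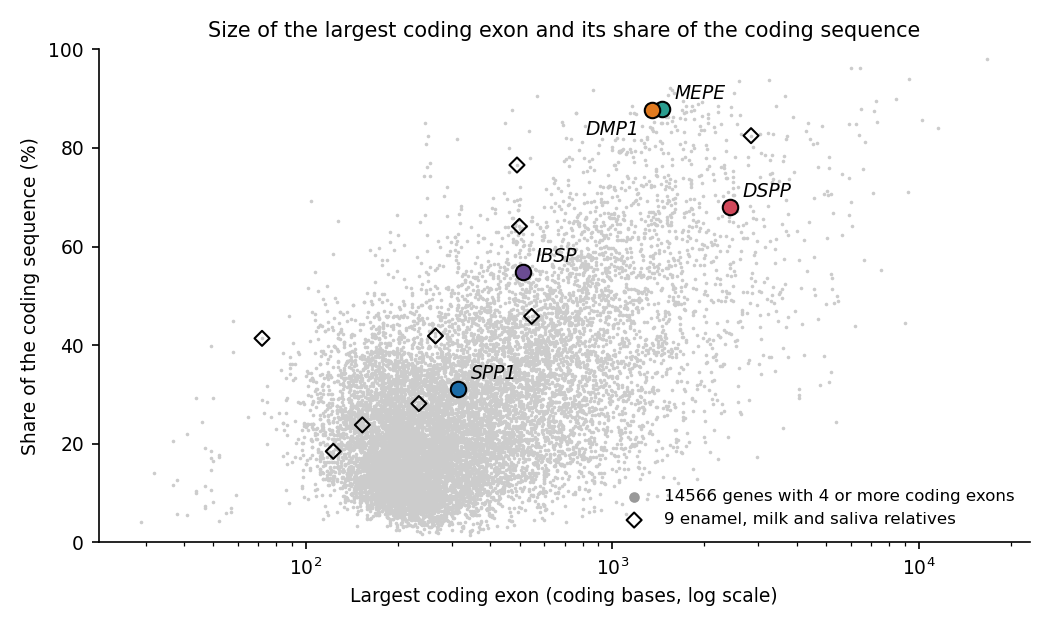
Length of the largest coding exon (log scale) against its share of the coding sequence in percent, for 14566 genes with 4 or more coding exons (grey), the 5 members (coloured) and 9 enamel, milk and saliva relatives (open diamonds). The relatives shown are those with 4 or more coding exons, which include AMELX and leave out CSN3. MEPE and DMP1 nearly coincide near 88%, DSPP lies to the right at 68.0%, IBSP lies at 54.8% and SPP1 lies within the bulk of the genes at 31.1%.

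The start of the coding sequence was alike in MEPE, IBSP and DMP1, and differed in DSPP and in SPP1-201. An untranslated first exon was annotated in MEPE, IBSP and DMP1, 3 of 5 members, against 18.4% of all coding genes. With any transcript counted it was 4 of 5, SPP1 included, against 25.9%. By the longest coding sequence, 31.7% of all coding genes had no annotated untranslated region and could not show such an exon. In the members with an untranslated first exon, the start codon lay near the beginning of the following exon. It came after 12 untranslated bases in MEPE, 14 in IBSP, 15 in DMP1 and 14 in SPP1-204. The coding part of that exon was 54 bases in MEPE, IBSP and SPP1-204 and 60 bases in DMP1. A first coding exon of exactly 54 bases was found in 2 of 5 members by the longest coding sequence, against 0.556%, and in 3 of 5 by any transcript, against 0.764%. One of 51 to 60 bases was found in 3 of 5, against 5.46%, or in 4 of 5 by any transcript, against 7.2%. The 54-base length and this range were not planned and match exons of the members and their relatives. The contrast with these shares is therefore not a test. DSPP had its 54-base exon in the second place, after the exon of 3 bases.

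SPP1 was annotated with 3 start sites. SPP1-201 and SPP1-202 began at 36700759. SPP1-204 began 665 bases downstream of them, and SPP1-203 began 29.8 kb upstream of them, at 36730559. The first intron of SPP1-203 measured 30145 bases, 80.7% of the gene body. Of the introns in the described transcripts of all coding genes, 3.02% were longer. Without that transcript the body of SPP1 would measure 7.57 kb and its gene-activity window 9.57 kb in place of 39.4 kb. The distance from SPP1 to MEPE would be 149.3 kb in place of 119.5 kb. The lengths of the SPP1 gene and window and its distance to MEPE therefore rested on 1 of 4 transcripts, and whether that transcript is a true product of the gene was not tested.

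The 4 transcripts held 11 distinct exons, of which 4 were common to all. They differed at the start codon, at an internal exon and at the 3' end. In SPP1-201 and SPP1-202 the start codon began at 36700284, within an exon that SPP1-204 lacks. In SPP1-204 the start codon began at 36699013, inside the 68-base exon that the others read as coding throughout. SPP1-201 therefore carried 60 further codons ahead of that point, in the same reading frame. SPP1-203 began its coding sequence with 13 bases in its distant first exon, and its first 2 introns between coding exons were in phase 1, as was the first of SPP1-201 and of SPP1-202. In SPP1-204 all 5 were in phase 0.

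SPP1-202 lacked the 81-base exon and thereby 27 codons, with no shift of the frame. Human osteopontin likewise has splice forms that lack a single short exon. At the other end SPP1-204 used an acceptor 40 bases ahead of that of SPP1-201, with a last intron of 658 against 698 bases. As 40 is not a multiple of 3, the last exon was read in another frame and stopped after 84 coding bases in place of 315. SPP1-204 accordingly had 201 codons, against 338 in SPP1-201, 333 in SPP1-203 and 311 in SPP1-202, and its 303-base exon, next to last, held 50.2% of the coding sequence. Whether the SPP1-204 model is correct was not tested, and this share rests on its last exon. The count of 5 of 5 members with phase 0 throughout rests instead on its first exons and start codon. So do the counts by any transcript of an untranslated first exon and of a first coding exon of set length. No annotated SPP1 transcript combined the untranslated first exon with the 315-base last exon.

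**Figure D5:**
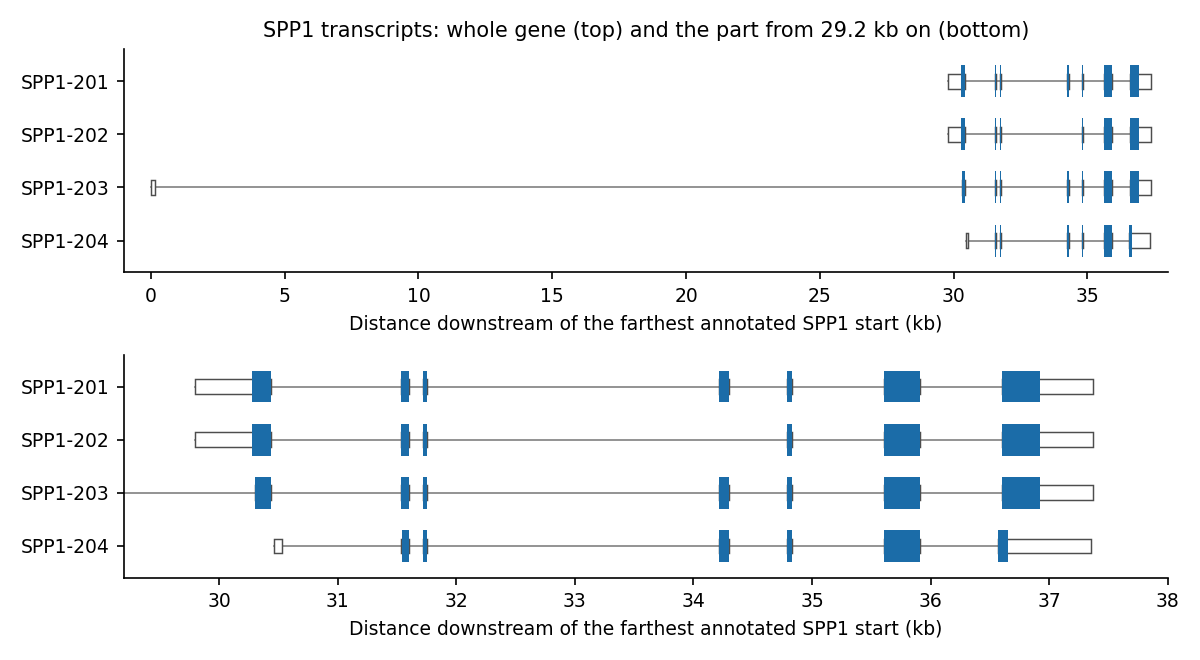
The 4 SPP1 transcripts as distance in kb downstream of the farthest annotated start, for the whole gene (top) and for its 3' part (bottom), with coding exons filled and untranslated parts open. SPP1-203 alone reaches 29.8 kb upstream of the next start, SPP1-202 lacks the 81-base exon, and SPP1-204 has the short coding part in its last exon; the 13 coding bases in the first exon of SPP1-203 are too few to be seen.

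Relatives of the family act outside bone, in enamel, milk and saliva. Of 14 symbols for enamel, milk and saliva proteins, 10 were found, and FDCSP, ODAPH, SCPPPQ1 and STATH were not matched by symbol. Of these, 9 lay on chromosome 6 within 610.4 kb (85411118 to 86021548), 48.5 Mb beyond IBSP and 16.5 Mb before DSPP. They were the casein genes CSN1S1, CSN2, CSN1S2 and CSN3, which encode milk proteins, the enamel matrix genes AMBN, AMTN, ENAM and ODAM, and the saliva and milk gene HSTN. AMELX, the amelogenin gene, lay on an unplaced scaffold. Introns between coding exons were in phase 0 in 77 of 78 cases (98.7%), and 8 of 9 genes with 4 or more coding exons had no other phase, against 2.1% in the background. The single exception was in AMTN. The first coding exon held 51 to 60 bases in 8 of 10, against 5.46%. This range matches exons of these genes themselves, so the contrast is not a test. An untranslated first exon was annotated in 4 of 10, against 18.4% of all coding genes.

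The largest coding exon held 50% or more of the coding sequence in 3 of the 9 relatives with 4 or more coding exons (ENAM, AMELX and CSN2), against 4 of 5 members and 10% of genes. Whether the members and the relatives differ in this was not tested. CSN3, with 3 coding exons, was outside this count, and its largest coding exon held 84.2%. ENAM, which encodes the largest enamel matrix protein, had the largest coding exon of the list, at 2838 bases, longer than that of DSPP. The casein genes CSN1S1 and CSN1S2 stood at the other end with 16 coding exons each, the largest of 153 and 123 bases.

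SPARCL1 had 10 coding exons, a first coding exon of 54 bases and a largest of 966 bases, which held 48.9% of the coding sequence. Its introns were in phase 0 in 6 of 9 cases. SPARC, on chromosome 7, had a largest coding exon of 245 bases and 4 of 9 introns in phase 0. Neither gene had phase 0 throughout, and in neither was the largest coding exon the last.

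Genes that act on or with these proteins are given beside the background of 45.5% of introns in phase 0 and 2.1% of genes with phase 0 throughout. Whether these lists differ from it was not tested. The kinases and proteases comprised 8 genes, all found, among them FAM20C, the Golgi kinase that phosphorylates the family, PHEX, an endopeptidase of bone, and BMP1, which cuts DMP1 and DSPP. Of their introns between coding exons 21 of 101 (20.8%) were in phase 0, none of the 8 genes had phase 0 throughout, and the largest coding exon was that of FAM20C at 739 bases. The receptors, CD44 and 6 integrin subunit genes, had 68 of 142 introns in phase 0 (47.9%) and at most 430 bases in a coding exon (ITGB3 and ITGB5).

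Of 12 other mineralisation genes, 9 had 4 or more coding exons, and none of those had phase 0 throughout. Over the list, introns between coding exons were in phase 0 in 125 of 175 cases (71.4%), and the collagen genes COL1A1 and COL1A2 accounted for 96 of these, out of 101 introns of their own. The gene with the largest coding exon was PHOSPHO1, a phosphatase gene of mineralising matrix vesicles, at 756 bases. Among 6 transcription factors of bone, SP7, the osteoblast factor osterix, had the largest at 1272 bases in a gene of 2 coding exons. None of the genes in these lists lay on chromosome 6.

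An untranslated first exon, 4 or more coding exons, phase 0 throughout and 50% or more of the coding sequence in a single exon occurred together in 15 genes, 0.103% of those with 4 or more coding exons. MEPE, DMP1 and IBSP were 3 of the 15, and AMELX was another. The features were chosen to find genes most like the members, so the presence of members in the set is not a test. The set was taken by the longest coding sequence, so SPP1 was not in it, although SPP1-204 had these features together. The 10 of the 15 with the longest such exon were AKAP4 (2142 bases), BACH2 (1599), MEPE (1458), NFE2L1 and DMP1 (1347 each), BACH1 (1338), HERC1 (930), ELK3 (780), IQCD (729) and NDUFAF1 (576). The record named HERC1 (ENSBTAG00000053677) had 4 coding exons and 1596 coding bases, and whether it is the complete gene was not tested. AKAP4 encodes an anchoring protein of the sperm tail, and BACH1, BACH2 and NFE2L1 encode basic leucine zipper transcription factors. Of the named genes, the longest exon was the last in MEPE, DMP1, IBSP and NFE2L1. These values describe likeness of gene models alone.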

How the data were processed

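The deposited file is the gene annotation of the cattle reference. The assembly is ARS-UCD1.2, per the file header and the submitters' processing notes. The deposited values are 1-based start and end positions of genes, transcripts, exons and coding parts, and no sample has a value of its own. Per the labels, the authors aligned reindeer reads to this cattle reference with Cell Ranger ATAC, so stretches where the species do not align give no fragments. Read filters are not stated in the labels.

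A gene's symbol is the first of its name entries. Each gene was described by the transcript with the longest coding sequence (ties by exonic bases, then identifier). Intron phase was summed from the coding lengths and equalled the frame column in all 18720 genes with 2 or more coding exons. The code was tested on simulated data, 400 gene models, and recovered all 400. Python 3.11.15 and matplotlib 3.10.9 were used. Percentages beside member counts are over all coding genes that meet the stated exon minimum. No test was run, as there are no replicates; 0 columns of sample values were left out.

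The members and lists were chosen with earlier results of these data known. Named genes are the members, the 3 nearest coding genes on each side, genes between members, list genes on chromosome 6, symbols not found, the gene with the largest coding exon of each list, and at most 10 genes most alike; other list genes were named for their role. Alternatives were other transcript choices, the stop codon, biotypes, name matching and the upstream extension.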

Additional observations from a re-analysis of the deposited data

How the results depend on the processing

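Of 65 alternative values, 42 equalled the reported ones and 23 differed. The number of members found, the span and the window overlaps did not differ. Between coding sequences in place of gene bodies, the spacing was 150.2 kb from SPP1 to MEPE, 18.3 kb from MEPE to IBSP and 32.5 kb from DSPP to DMP1. With the stop codon added, the largest coding exon was 318 bases (31.3%) in SPP1, 1461 (87.9%) in MEPE, 513 (54.98%) in IBSP, 2430 (68.0%) in DSPP and 1350 (87.7%) in DMP1. For SPP1, the transcript with the most exons had 8 exons and a share of 31.5%. The union of all transcripts, with overlapping exons merged, had 9 exons. Counting any transcript, SPP1 had 1 untranslated first exon. Alternatives chosen after seeing the data were SPP1-204, with 1 untranslated first exon, a largest coding exon of 303 bases and a share of 50.2%, and SPP1 without SPP1-203, with a window of 9.57 kb and 149.3 kb to MEPE. With genes of any biotype, the nearest gene below DSPP was 46.7 kb away. No paired analysis was possible because no value belongs to a sample.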

Other observations

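Chromosome 6 had the highest share of genes with phase 0 throughout among the 30 chromosomes that carried at least 100 genes with 4 or more coding exons. It held 20 such genes among 431 (4.64%), ahead of chromosome 26 (13 of 297, 4.38%) and chromosome 22 (16 of 404, 3.96%). The lowest share was on chromosome 12, with 1 of 238 (0.42%). Of the 20 genes on chromosome 6, 11 belonged to the family or its relatives: MEPE, IBSP, DSPP and DMP1, and CSN1S1, CSN2, HSTN, CSN1S2, ODAM, AMBN and ENAM. The first rank of the chromosome rests on these 11, without which its share would not be the highest. The other 9 included ZAR1, an egg factor gene with 843 bases in its largest coding exon, and TSPAN5, a tetraspanin gene. These genes were named after their values had been seen.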
